A study of Mus musculus with 12 samples.

Results

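The T cell receptor beta (TRB) chains of aortic T cells were described by the V, D, J and C genes they used, by the length of the CDR3 (the complementarity-determining region formed at the V-D-J joints) and by how often 1 clone came back. The receptor libraries listed assembled contigs per cell barcode, and every productive TRB contig was taken, with the contig of most unique molecular identifiers (UMIs) kept where a barcode had more than 1. This gave 1783 barcodes in the whole series, of which 1207 were in the library labelled Healthy, 535 in MTZ-preventive, 38 in MTZ-treated and 3 in AS. The 1742 barcodes of the first and the second of these libraries carry the description, since 38 and 3 barcodes give few values.

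All 4 groups were labelled ApoE-/- mice, 18 per group, male C57BL/6J animals aged 8 weeks at the start, studied over 24 weeks. The Healthy group received a normal diet and saline. The diet of the AS, MTZ-treated and MTZ-preventive groups held 1% cholesterol and 10% fat. AS mice had saline. MTZ-treated mice had saline for the first 12 weeks and methazolamide (MTZ, a carbonic anhydrase inhibitor, written methoxazolamide in the labels) for the next 12. The dose was 25 mg/kg every other day, begun after atherosclerosis was established by the label. MTZ-preventive mice had the same dose for all 24 weeks. Aortas of 6 mice were pooled per group, and 1 gene expression library and 1 T cell receptor library were made from each pool. Mice therefore cannot be told apart, no test between groups was possible, and no p-value is given. The intervals below are exact 95% intervals (Clopper-Pearson for shares, Poisson for counts, conditional binomial for ratios), which cover counting error only and not the spread between mice. Diet and drug both differ between the library labelled Healthy and MTZ-preventive, so that their effects cannot be told apart.

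The genotype label was checked by the level of Apoe over whole gene expression libraries. It stood at 696 CPM (UMIs of the gene in 1e6 UMIs, 689 to 704) in the library labelled Healthy, against 11.4 CPM for AS, 11.8 CPM for MTZ-treated and 8.98 CPM for MTZ-preventive. The level in the library labelled Healthy goes against its ApoE-/- label, and this library is called "labelled Healthy" throughout. Every comparison between libraries below that involves MTZ-preventive is made against it. A possible difference in Apoe genotype therefore cannot be told apart from diet and drug either. Within TRB barcodes Apoe was at 79.3 CPM there and at 2.39 CPM in MTZ-preventive. The 4 gene expression libraries held 6908 to 23963 barcodes, and the library labelled Healthy shared 805 of them with MTZ-preventive. Among TRB barcodes 1 was shared by both, with a different clone in each.

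A beta chain gene is built in the thymus by joining 1 D segment to 1 J segment and then 1 V segment to the D-J unit, and bases are removed and added at each joint. The joints fall in the CDR3, the loop that touches the peptide, so that cells with the same V, J and CDR3 bases are read as 1 clone. In the mouse the locus holds 2 D-J-C units in a row, the first with Trbd1, the Trbj1 genes and Trbc1 and the second with Trbd2, the Trbj2 genes and Trbc2. The RefSeq table of build GRCm38.p6 places it at chr6:40891296-41558371 with 35 V, 2 D, 14 J and 2 C genes, 13 of the V genes listed as pseudogenes. The contig names (TRBV3 for Trbv3, and so on) matched this table for 37 of 38 names. The name without a match, TRBV12-2+TRBV13-2, joins 2 genes.

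The CDR3 of the 5 largest clones of each of these libraries, and of the only clone of AS with more than 1 barcode, are printed to show what a clone is and how the joints differ. Letters are the bases of the contig, 5′ to 3′, from the conserved cysteine codon to the phenylalanine codon. Capitals mark the bases outside the start and the end that are commonest for that V and that J gene, which is where the D segment and the joints lie.
Labelled Healthy, clone 1, TRBV12-2 with TRBJ2-1, 7 barcodes: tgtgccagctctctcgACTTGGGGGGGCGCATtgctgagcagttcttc
Labelled Healthy, clone 2, TRBV12-2 with TRBJ2-7, 5 barcodes: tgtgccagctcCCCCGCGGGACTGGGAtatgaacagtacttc
Labelled Healthy, clone 3, TRBV3 with TRBJ2-1, 4 barcodes: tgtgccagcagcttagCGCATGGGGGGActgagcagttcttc
Labelled Healthy, clone 4, TRBV13-1 with TRBJ2-4, 3 barcodes: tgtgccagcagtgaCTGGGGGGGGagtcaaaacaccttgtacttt
Labelled Healthy, clone 5, TRBV15 with TRBJ1-1, 3 barcodes: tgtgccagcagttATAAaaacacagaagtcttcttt
MTZ-preventive, clone 1, TRBV26 with TRBJ2-5, 4 barcodes: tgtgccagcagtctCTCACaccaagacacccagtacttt
MTZ-preventive, clone 2, TRBV31 with TRBJ1-3, 4 barcodes: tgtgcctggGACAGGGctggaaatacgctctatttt
MTZ-preventive, clone 3, TRBV14 with TRBJ2-5, 3 barcodes: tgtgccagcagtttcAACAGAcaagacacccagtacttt
MTZ-preventive, clone 4, TRBV20 with TRBJ1-1, 3 barcodes: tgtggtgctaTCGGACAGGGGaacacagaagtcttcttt
MTZ-preventive, clone 5, TRBV3 with TRBJ2-3, 3 barcodes: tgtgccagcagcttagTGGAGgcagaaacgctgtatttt
AS, TRBV26 with TRBJ2-5, 2 barcodes: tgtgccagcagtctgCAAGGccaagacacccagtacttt
The clone of AS and clone 1 of MTZ-preventive used the same V and J gene with different bases at the joint, so they are not 1 clone.

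The contigs had the same median of 4 UMIs in both libraries and fewer reads in MTZ-preventive, with a median of 6014 reads per contig in the library labelled Healthy and 4302 in MTZ-preventive. At least 3 UMIs were present for 974 of 1207 and 409 of 535 contigs. A productive alpha chain was found in 52.4% and 51.8% of TRB barcodes. A productive B cell receptor contig was found in 6.71% (5.37 to 8.27) and 3.18% (1.86 to 5.04) of them, and 22 and 8 barcodes had 2 TRB contigs. In the gene expression libraries 1203 and 530 of the TRB barcodes were present, with a median of 3313 and 2607 UMIs. T cell identity was plain there, with a UMI of Cd3d, Cd3e or Cd3g, the CD3 chains of the receptor complex, in 96.6% and 90.6% of TRB barcodes and in 7.13% and 3.73% of barcodes with a B cell receptor and no T cell receptor. RNA of other aortic cells was also counted in TRB barcodes. The summed level of the 3 smooth muscle markers Acta2, Myh11 and Tagln was 685 CPM in the library labelled Healthy and 1569 CPM in MTZ-preventive, and that of the 3 fibroblast markers Col1a1, Dcn and Pdgfra was 363 and 988 CPM. The 5 B cell markers went the other way, at 278 and 136 CPM. The part of this RNA in the results below was not tested.

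V gene usage was broad in both libraries. The contigs carried 22 V names, 9 of them at 5% or more in either library. Ranks in this paragraph are by these names as called. They change where the joined name TRBV12-2+TRBV13-2 is read as TRBV13-2, as given below. In the library labelled Healthy TRBV3 led with 133 of 1207 barcodes, 11.02% (9.31 to 12.9), followed by TRBV1 with 8.20% (6.72 to 9.90) and TRBV16 with 7.54% (6.11 to 9.18). The intervals of TRBV3 and TRBV1 overlapped, as did those of TRBV1 and TRBV16, while those of TRBV3 and TRBV16 did not. In MTZ-preventive TRBV16 led with 48 of 535 barcodes, 8.97% (6.69 to 11.7), followed by TRBV3 with 8.79% (6.53 to 11.5) and TRBV13-3 with 8.22% (6.04 to 10.9). The intervals of these 3 overlapped as well. Of the other frequent names, TRBV15 stood at 6.46% and 7.10%, TRBV12-2+TRBV13-2 at 6.79% and 8.04%, and TRBV13-1 at 6.63% and 4.86%, the library labelled Healthy first. The 13 V names under 5% in both libraries ranged from TRBV30 at 0.166% up to TRBV31 at 4.97% in the library labelled Healthy, and from TRBV30 at 0.374% up to TRBV31 at 4.86% in MTZ-preventive.

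Among the 9 frequent names, 3 had a ratio of MTZ-preventive to the library labelled Healthy whose interval left out 1, and none of the intervals was adjusted for the 22 names compared. TRBV19 took 3.31% (2.38 to 4.49) of barcodes in the library labelled Healthy, against 6.92% (4.92 to 9.41) for MTZ-preventive, a ratio of 2.09 (1.30 to 3.35). TRBV13-3 took 4.56% (3.45 to 5.89) and 8.22%, a ratio of 1.81 (1.19 to 2.73). TRBV12-2 went the other way with 6.30% (4.99 to 7.82) and 3.18% (1.86 to 5.04), a ratio of 0.505 (0.280 to 0.862). Its close relative TRBV12-1, under 5% in both and named after its values were seen, took 4.81% and 2.24%, a ratio of 0.467 (0.228 to 0.879). The other 6 frequent names had ratios between 0.733 (TRBV13-1, 0.452 to 1.15) and 1.19 (TRBV16, 0.821 to 1.71), with intervals that held 1. Over the 22 names the shares of both libraries had a Pearson r of 0.759 and a Spearman rho of 0.736, given as a description since names are not replicates. With each clone counted once, the ratio of TRBV12-2 was 0.600 (0.330 to 1.03), so that its interval then held 1. Among barcodes with an alpha chain the ratios kept their side of 1 but all 4 intervals held it, at 1.67 (0.874 to 3.14) for TRBV19, 1.21 (0.632 to 2.25) for TRBV13-3, 0.679 (0.313 to 1.36) for TRBV12-2 and 0.470 (0.176 to 1.08) for TRBV12-1.

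**Figure D1:**
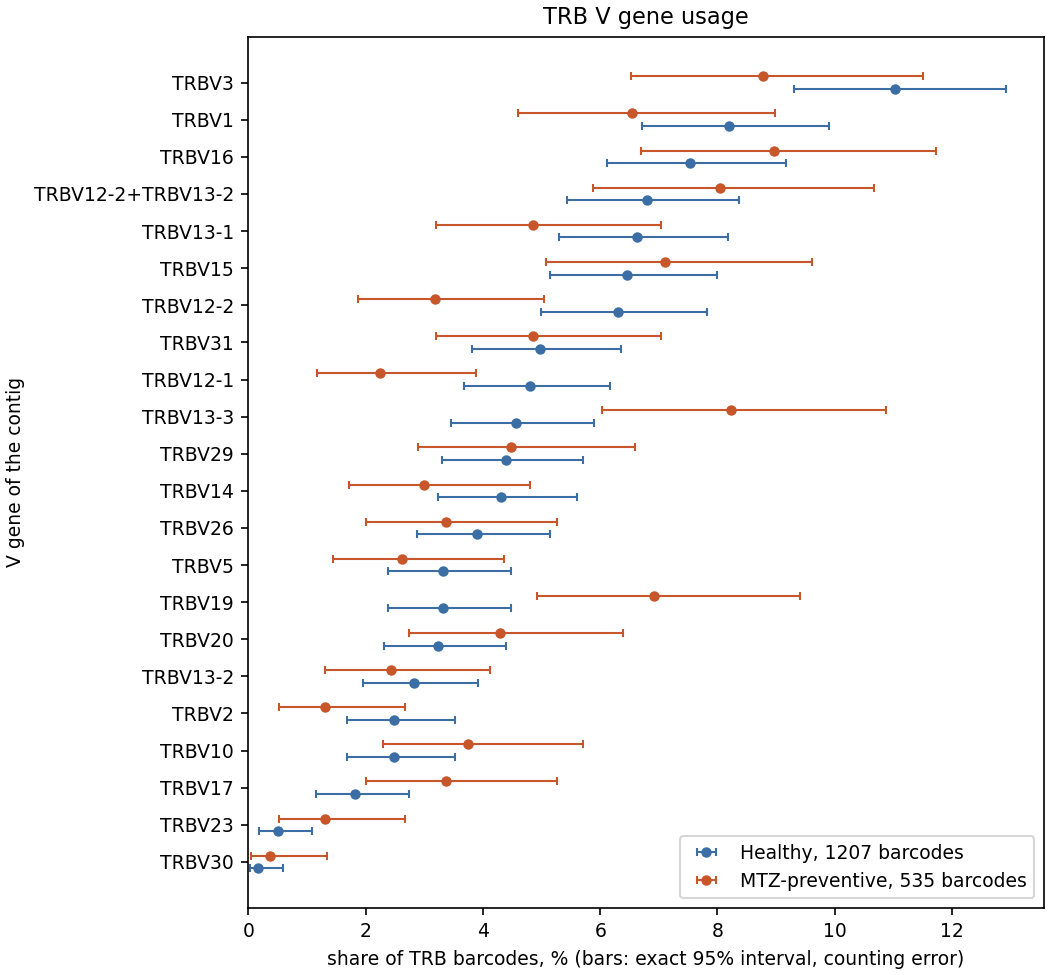
Share of TRB barcodes (horizontal axis, %) that used each V gene (vertical axis, ordered by the library labelled Healthy), with exact 95% intervals of counting error as bars, for 1207 barcodes of the library labelled Healthy (blue) and 535 of MTZ-preventive (orange). TRBV19 and TRBV13-3 lie further right in MTZ-preventive and TRBV12-2 and TRBV12-1 further left; the bars of TRBV19 and TRBV13-3 do not overlap between the libraries, and all others do.

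The 38 barcodes of MTZ-treated used TRBV1 most often, in 7 barcodes or 18.4% (7.74 to 34.3), and TRBV12-2+TRBV13-2 in 4. With the joined name read as TRBV13-2, as below, TRBV13-2 was also in 7. With so few barcodes no V gene could be placed above or below the other libraries. In AS 2 barcodes used TRBV26 and 1 used TRBV16.

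The V gene read in the contig was set beside the V gene UMIs that the same barcode had in the gene expression library, which is a separate amplification of the same cDNA. At least 1 Trbv UMI was present in 1177 of 1203 barcodes of the library labelled Healthy and in 476 of 530 of MTZ-preventive. The Trbv gene with the most UMIs was that of the contig in 98.2% (97.3 to 98.9) and 97.9% (96.2 to 99.0) of them, and 92.3% and 94.7% of all Trbv UMIs in these barcodes were of the gene of the contig. In the 35 barcodes of MTZ-treated with a Trbv UMI the leading gene matched in all 35. A tie for the most UMIs was counted as a match. Thus the V calls of both readouts went together, once 2 names were read as follows, a reading taken from these same UMIs.

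TRBV10 contigs carried no Trbv10 UMI. Their barcodes held 67 of 76 Trbv UMIs as Trbv4 in the library labelled Healthy and 38 of 39 in MTZ-preventive, and no contig was named TRBV4. RefSeq lists Trbv10 as a pseudogene and Trbv4 as a V segment with the older name Tcrb-V10. The contigs named TRBV12-2+TRBV13-2 carried Trbv13-2 UMIs, 220 of 240 in the library labelled Healthy and 61 of 65 in MTZ-preventive, with 9 of Trbv12-2 in the former. Read as Trbv13-2, these contigs together with those named TRBV13-2 were in 9.64% (8.03 to 11.4) and 10.6% (8.08 to 13.5) of the barcodes present in the gene expression libraries. On that reading Trbv13-2 stood second after Trbv3 in the library labelled Healthy and first in MTZ-preventive. TRBV29, which RefSeq lists as a pseudogene, had productive contigs in 53 and 24 barcodes, with Trbv29 UMIs in the same barcodes.

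**Figure D2:**
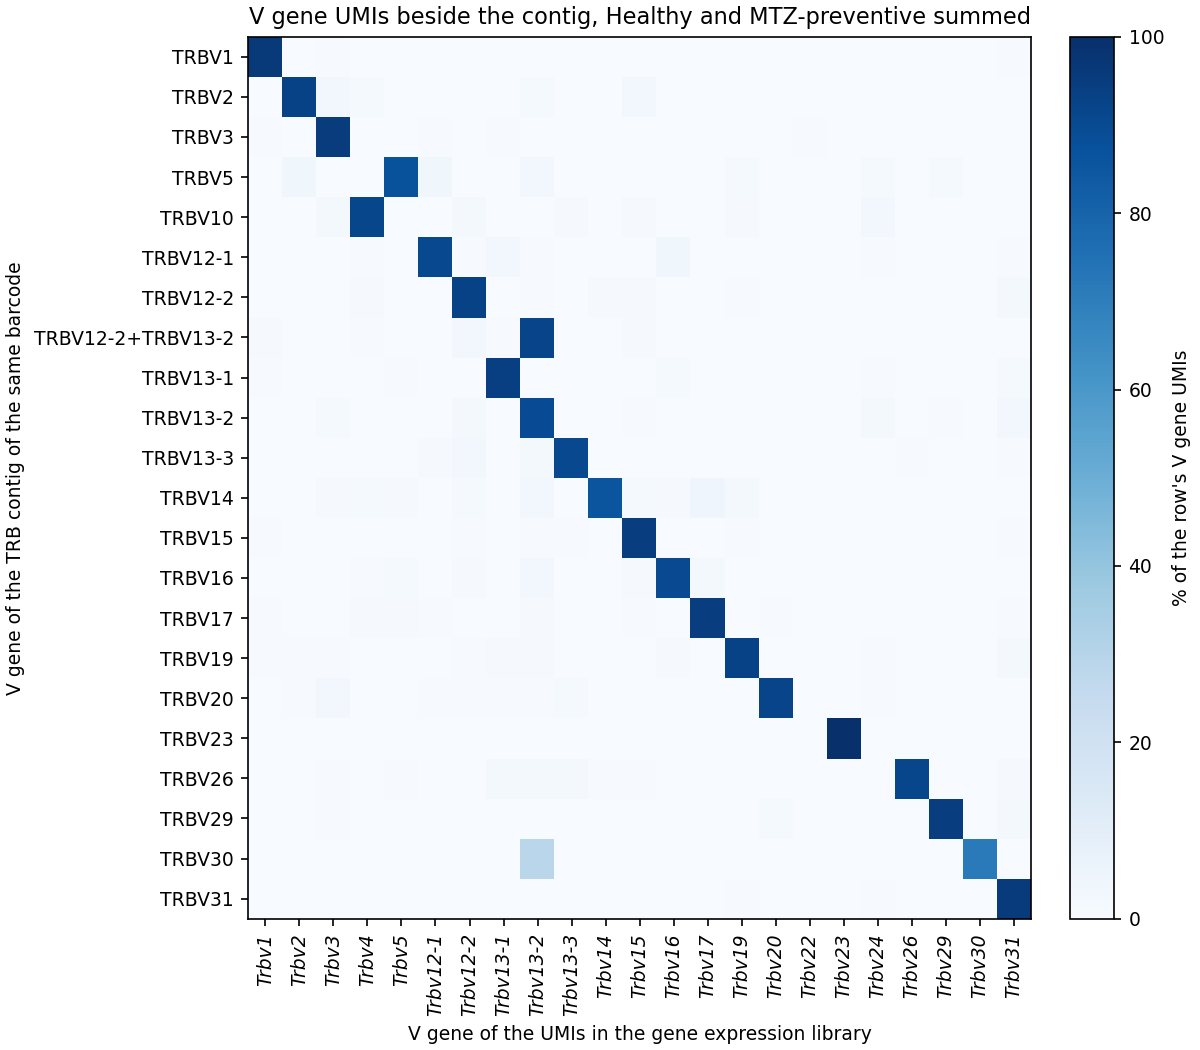
V gene UMIs in the gene expression library (horizontal axis) for barcodes grouped by the V gene of their TRB contig (vertical axis), as % of each row's V gene UMIs (colour, 0 to 100), summed over the library labelled Healthy and MTZ-preventive. Nearly all UMIs lie on the diagonal, TRBV10 falls on Trbv4 and TRBV12-2+TRBV13-2 on Trbv13-2, and the row of TRBV30 rests on 4 barcodes.

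Barcodes without a TRB contig gave a small second sample of V usage. Barcodes with no TRB contig and no B cell receptor, with at least 2 UMIs of 1 Trbv gene that made up at least 80% of their Trbv UMIs, numbered 107 in the library labelled Healthy and 45 in MTZ-preventive. No T cell gene other than Trbv was required of them. Among them Trbv12-2 had shares of 5.61% and 6.67%, a ratio of 1.19 (0.192 to 5.57), and Trbv19 shares of 2.80% and 4.44%, a ratio of 1.58 (0.132 to 13.8). Trbv13-3 had shares of 3.74% and 2.22%, a ratio of 0.594 (0.0121 to 6.01), and Trbv12-1 shares of 3.74% and 6.67%. The shares rest on 3 and 2 barcodes for Trbv19 and 4 and 1 for Trbv13-3. For Trbv12-1 they rest on 4 and 3, and for Trbv12-2 on 6 and 3. By value Trbv19 pointed the same way as in the contigs and Trbv12-1, Trbv12-2 and Trbv13-3 the other way. At these counts the intervals are too wide to show a difference, or to tell whether the direction matches that of the contigs. Trbv16, whose ratio in the contigs was 1.19, led 1 of 107 and 5 of 45 of these barcodes, a ratio of 11.9 (1.33 to 562). Trbv3 had a ratio of 1.49 (0.383 to 5.15) and Trbv1 of 0.793 (0.186 to 2.62). None of these intervals was adjusted for the number of genes read.

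J gene usage was close to the same in both libraries. TRBJ2-7 was used most, by 20.6% (18.4 to 23.0) of barcodes in the library labelled Healthy, against 17.9% (14.8 to 21.5) for MTZ-preventive. TRBJ2-1 followed in the library labelled Healthy with 11.1% (10.8% in MTZ-preventive), and TRBJ1-1 in MTZ-preventive with 11.8% (10.5% in the library labelled Healthy). TRBJ2-3 and TRBJ2-5 both had 10.2% in the library labelled Healthy, with 8.04% and 10.5% in MTZ-preventive. Middle shares were those of TRBJ2-4 (8.78% and 8.04%), TRBJ1-4 (7.79% and 7.85%) and TRBJ1-2 (6.30% and 6.73%). Lower in both libraries were TRBJ2-2 (4.64% and 6.17%), TRBJ1-3 (4.39% and 6.36%), TRBJ1-6 (3.07% and 3.74%) and TRBJ1-5 (2.40% and 2.06%). The largest ratio of MTZ-preventive to the library labelled Healthy was 1.45 for TRBJ1-3, with an interval that held 1, as all 12 did. Over these 12 genes the Pearson r between the libraries was 0.969.

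The second D-J-C unit was used more than the first. TRBJ2 genes were in 65.5% (62.8 to 68.2) of barcodes of the library labelled Healthy, 61.5% (57.2 to 65.6) of MTZ-preventive and 63.2% (46.0 to 78.2) of MTZ-treated. The ratio of MTZ-preventive to the library labelled Healthy was 0.938 (0.823 to 1.07). TRBC2 was the constant gene of 66.1% and 61.7% of contigs with a C call, and TRBC1 of 33.9% and 38.3%. In every contig with a C call a TRBJ1 gene went with TRBC1 and a TRBJ2 gene with TRBC2, 1188 contigs in the library labelled Healthy and 527 in MTZ-preventive. C gene UMIs of the gene expression library followed this only in part. Barcodes with a TRBC1 contig held 220 Trbc1 and 722 Trbc2 UMIs in the library labelled Healthy, and 53 and 190 in MTZ-preventive. Barcodes with a TRBC2 contig held 148 Trbc1 and 934 Trbc2 UMIs in the library labelled Healthy, and 29 and 192 in MTZ-preventive. Trbc1 and Trbc2 are near-identical copies, so the division of these UMIs between them is uncertain and levels of each gene alone are not read as usage.

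The D gene was called in 262 contigs of the library labelled Healthy and 100 of MTZ-preventive, and it followed the order of the locus. TRBD1 was called in 65.3% (59.2 to 71.0) and 73.0% (63.2 to 81.4) of these. TRBD2 lies downstream of the TRBJ1 genes and can join them only by an unusual route. It was called in 2 of 65 contigs with a TRBJ1 gene in the library labelled Healthy and 0 of 45 in MTZ-preventive, which allows up to 7.87% there by the upper interval bound. With a TRBJ2 gene it was called in 45.2% (38.1 to 52.4) and 49.1% (35.4 to 62.9). The bases of the CDR3 gave the same split without any D call, when each clone was counted once. ACTGGG, a stretch of Trbd2, was present on the coding strand in 0.489% of TRBJ1 clones and 23.9% of TRBJ2 clones in the library labelled Healthy, and in 0% (upper bound 1.87%) and 23.4% in MTZ-preventive. ACAGGG, the matching stretch of Trbd1, which differs from it at 1 base, was present in 23.2% and 17.5% of TRBJ1 and TRBJ2 clones in the library labelled Healthy and in 32.8% and 13.5% in MTZ-preventive. Clone 2 of the library labelled Healthy shows the first stretch beside a TRBJ2 gene, and clone 2 of MTZ-preventive the other beside a TRBJ1 gene.

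CDR3 length had the same median of 14 residues, with quartiles of 13 and 15, in both libraries. The shortest had 9 and 8 residues and the longest 19 and 18. All CDR3 began with cysteine and ended with phenylalanine. A CDR3 of at most 13 residues was present in 36.7% (34.0 to 39.5) and 41.1% (36.9 to 45.4) of barcodes, a ratio of 1.12 (0.949 to 1.32). The one length at which the intervals of both libraries did not overlap was 14 residues, which 33.2% (30.6 to 36.0) of barcodes of the library labelled Healthy had, against 26.0% (22.3 to 29.9) for MTZ-preventive. MTZ-treated had a median of 14 and 34.2% (19.6 to 51.4) at or under 13 residues. Length went with the J gene in both libraries, with means of 14.7 and 14.4 residues for TRBJ2-3 against 13.19 and 12.98 for TRBJ2-7. TRBV20 contigs were among the shortest, with means of 12.9 residues in 39 barcodes and 12.8 in 23. The stretch between the commonest V start and J end had a median of 10 bases in both libraries, with quartiles of 7 and 12, and was absent in 3 and 4 clones.

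**Figure D3:**
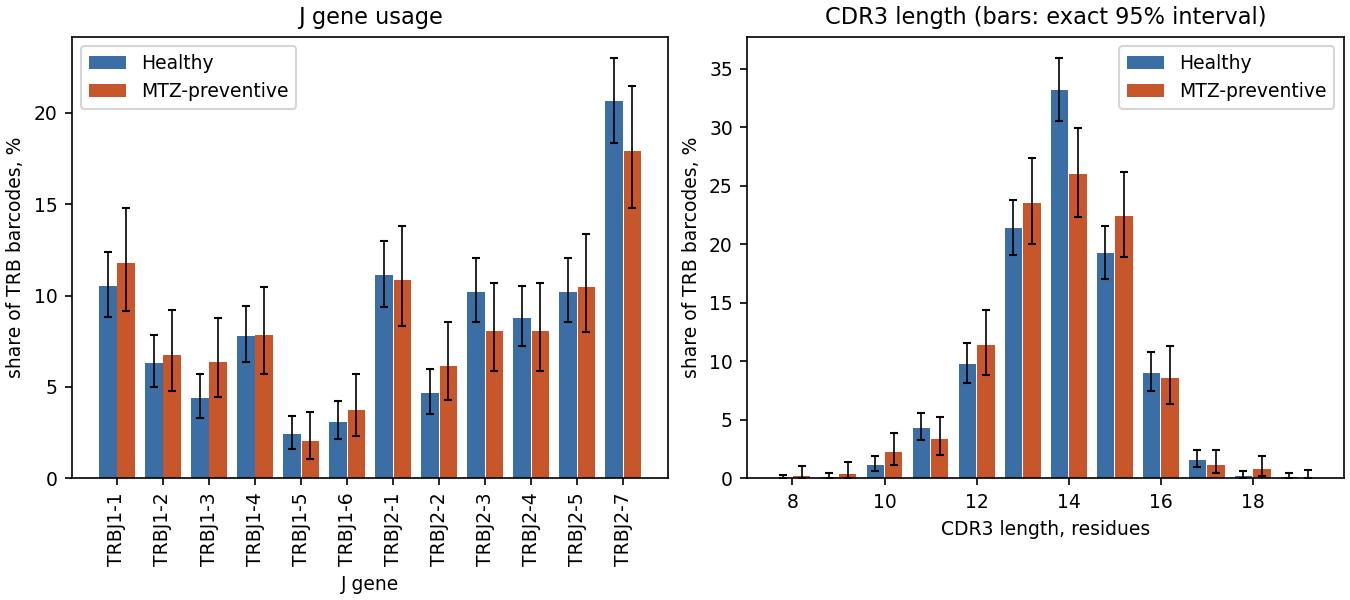
Left, share of TRB barcodes (%) that used each of the 12 J genes; right, share (%) with each CDR3 length in residues. Blue bars are the library labelled Healthy and orange bars MTZ-preventive, with exact 95% intervals of counting error; J bars overlap throughout, TRBJ2-7 is the highest, and the bars at 14 residues stand at 33.2% and 26.0%.

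Repeated clones were few, and made up a larger share of barcodes in MTZ-preventive. In the library labelled Healthy 13 clones had 2 or more barcodes, together 40 of 1207 or 3.31% (2.38 to 4.49). In MTZ-preventive 21 clones did, together 49 of 535 or 9.16% (6.85 to 11.9), a ratio of 2.76 (1.78 to 4.31). A barcode counts here only with another of its clone, so barcodes are not independent draws. Intervals of these shares and their ratio, here and below, do not cover the spread between clones and are too narrow for it. The share in repeated clones also depends on the number of barcodes drawn, which was smaller in MTZ-preventive. At an equal draw of 535 barcodes the library labelled Healthy would give 528 distinct clones on average, against the 507 seen in MTZ-preventive. No interval was computed for that average, and the cause of the difference was not tested. Of all pairs of barcodes, 55 of 727821 were of 1 clone in the library labelled Healthy and 37 of 142845 in MTZ-preventive. The largest clones had 7 barcodes in the library labelled Healthy and 4 in MTZ-preventive. None of the 38 barcodes of MTZ-treated shared a clone, which allows a share of up to 9.25% by the upper bound.

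The alpha chain gave a check of these clones. In the library labelled Healthy 6 repeated clones had an alpha chain in 2 or more barcodes, and in 4 of them it was 1 alpha chain. In MTZ-preventive this held for 8 of 10. Clones 4 and 6 there each had 2 barcodes with an alpha chain and 2 different alpha chains. Clone 1 of the library labelled Healthy, the largest of all with 7 barcodes, had 3 barcodes with an alpha chain and 3 different alpha chains. In clones 2, 3 and 4 of the library labelled Healthy the 3 barcodes with an alpha chain had the same one. With the alpha CDR3 made part of the definition, repeated clones held 1.74% (0.871 to 3.09) of the barcodes with an alpha chain in the library labelled Healthy, against 6.14% (3.62 to 9.65) for MTZ-preventive, a ratio of 3.53 (1.56 to 8.34). The 2 barcodes of 1 clone of the library labelled Healthy, TRBV29 with TRBJ1-2, differed at only 2 positions. Counted as 1 cell, they leave 3.15% in repeated clones there.

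No clone, by V gene, J gene and CDR3 bases, was found in more than 1 library. By CDR3 bases alone 2 sequences were identical in the library labelled Healthy and MTZ-preventive, with different V calls. One was called TRBV12-2 and TRBV12-1 with TRBJ1-3, and the other TRBV26 and TRBV15 with TRBJ2-7. The library labelled Healthy and MTZ-preventive had 8 CDR3 residue sequences in common, these included, and 2 of the 8 had the same V and J gene. These 2 are printed because they show how 1 residue sequence came from different joints, with capitals at the base that differs.
Pair 1, TRBV3 with TRBJ2-4, labelled Healthy: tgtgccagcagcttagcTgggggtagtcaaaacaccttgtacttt
Pair 1, TRBV3 with TRBJ2-4, MTZ-preventive: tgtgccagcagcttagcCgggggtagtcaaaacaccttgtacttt
Pair 2, TRBV15 with TRBJ2-7, labelled Healthy: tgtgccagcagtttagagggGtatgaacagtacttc
Pair 2, TRBV15 with TRBJ2-7, MTZ-preventive: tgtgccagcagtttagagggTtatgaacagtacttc
Each pair differs at 1 base, which leaves the residue unchanged. Within a library, 8 of 1172 residue sequences of the library labelled Healthy and 2 of 505 of MTZ-preventive were encoded by 2 base sequences.

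TRB barcodes were split by the co-receptor UMIs they held. Cd8a and Cd8b1 encode the chains of CD8, the co-receptor for MHC class I, and Cd4 that for MHC class II. In the library labelled Healthy 515 barcodes had a Cd8a or Cd8b1 UMI and no Cd4 UMI, 157 had Cd4 alone, 11 had both and 520 had neither. In MTZ-preventive the numbers were 160, 54, 2 and 314. Of barcodes with 1 of the co-receptors, 76.6% (73.2 to 79.8) and 74.8% (68.4 to 80.4) had Cd8, which differed by less than the counting error. Over TRB barcodes Cd4 stood at only 47.8 and 37.1 CPM, against 263 and 183.5 CPM for Cd8b1. Whether Cd4 was missed more often than Cd8 was not tested. The share is thus one of barcodes with a UMI and not of CD8 T cells. Barcodes with neither were more frequent in MTZ-preventive (59.2% against 43.2%), where the barcodes also had fewer UMIs. Thinned to 1000 UMIs each, 24.01% and 16.98% kept a Cd8a or Cd8b1 UMI, with 19 and 20 shallower barcodes left out. In barcodes with a B cell receptor and no T cell receptor, unthinned, Cd4 UMIs were in 0.381% and 0.339% and Cd8 UMIs in 2.51% and 1.40%, at medians of 1813 and 1584 UMIs.

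V usage differed between Cd8 and Cd4 barcodes for a few genes of the library labelled Healthy. TRBV12-2 was used by 9.32% (6.95 to 12.2) of Cd8 barcodes and 2.55% (0.698 to 6.40) of Cd4 barcodes, a ratio of 3.66 (1.34 to 14.0). TRBV12-1 was used by 8.74% (6.45 to 11.5) and 1.27% (0.155 to 4.53), a ratio of 6.86 (1.79 to 58.4). Both TRBV12 genes thus leaned to Cd8 when barcodes were counted. Of the 48 Cd8 barcodes with TRBV12-2, 2 were of clone 1 and 5 of clone 2, and barcodes of 1 clone are not independent. TRBV5 leaned to Cd4, with 1.55% of Cd8 and 6.37% of Cd4 barcodes, a ratio of 0.244 (0.0836 to 0.686), and so did TRBV31 with 2.91% and 7.64%, a ratio of 0.381 (0.167 to 0.892). In MTZ-preventive 9 and 5 of the 160 Cd8 barcodes used TRBV12-2 and TRBV12-1, and 0 of the 54 Cd4 barcodes used either. TRBV31 and TRBV5 were used there by 3.13% and 2.50% of Cd8 barcodes and by 3.70% and 5.56% of Cd4 barcodes, within counting error. These 4 genes were named after their values were seen, and no interval was adjusted for the 22 names compared.

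The differences in V usage between the libraries were also read within Cd8 barcodes. TRBV12-1 had a ratio of MTZ-preventive to the library labelled Healthy of 0.358 (0.111 to 0.898) among them. The ratio was 0.603 (0.260 to 1.24) for TRBV12-2, 2.01 (0.816 to 4.72) for TRBV19 and 1.07 (0.417 to 2.47) for TRBV13-3. TRBV16 was used by 7.77% and 13.75% of Cd8 barcodes, a ratio of 1.77 whose interval (1.002 to 3.05) just left out 1. A difference in TRBV13-3, TRBV12-2 or TRBV19 was thus not detectable within Cd8 barcodes at this depth. The TRBJ2 share was 66.4% of Cd8 and 66.9% of Cd4 barcodes in the library labelled Healthy, and 58.1% and 59.3% in MTZ-preventive. A CDR3 of at most 13 residues was less frequent in Cd8 than in Cd4 barcodes by value in both (35.3% and 43.3%, 41.2% and 44.4%), within counting error.

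**Figure D4:**
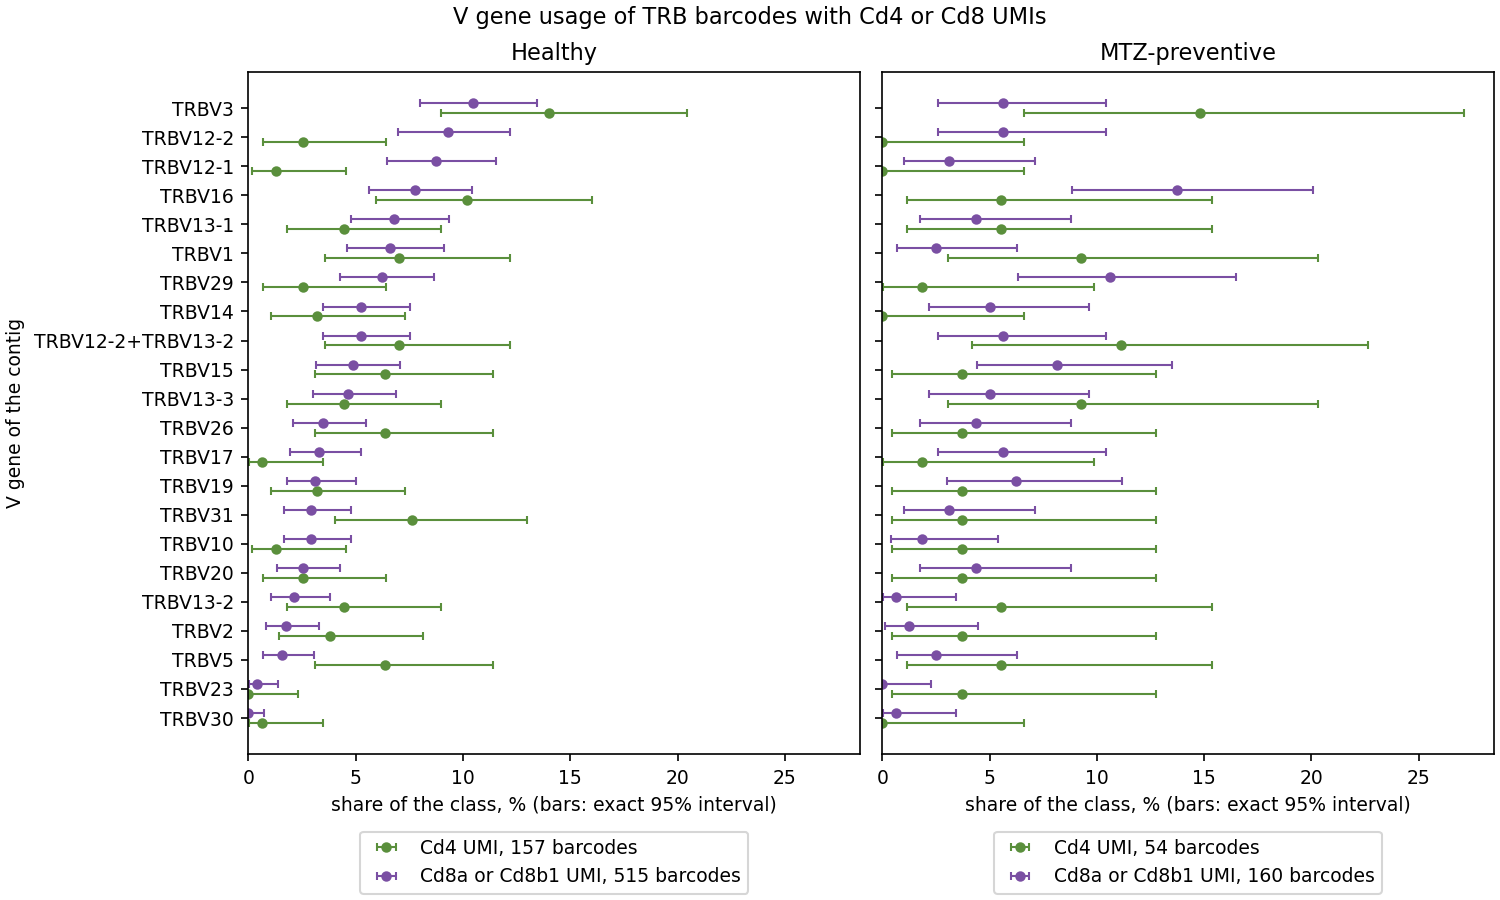
Share (horizontal axis, %) of Cd8 barcodes (purple) and Cd4 barcodes (green) that used each V gene (vertical axis), with exact 95% intervals of counting error as bars, in the library labelled Healthy (left) and MTZ-preventive (right). On the left the purple points of TRBV12-2 and TRBV12-1 stand at 9.32% and 8.74% and their green points at 2.55% and 1.27%; on the right the green points of both are at 0.

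Invariant alpha chains, which pair with a limited set of V genes in natural killer T cells, were rare. TRAV11 with TRAJ18 was found in 4 of 633 barcodes with an alpha chain in the library labelled Healthy, 2 of 277 in MTZ-preventive and 1 of 14 in MTZ-treated. TRBV13-3 (2 barcodes), TRBV1 and TRBV29 were the partners in the library labelled Healthy, and TRBV1 and TRBV17 in MTZ-preventive. Genes of V(D)J recombination were near 0 in TRB barcodes. Rag1 had 3 and 0 UMIs, Rag2 0 in both, Ptcra, the thymic partner of the beta chain, 1 and 0, and Dntt, which adds bases at the joints, 11 and 6.

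Repeated clones differed from single clones in the summed levels of some genes, within the library labelled Healthy and within MTZ-preventive. Ccl5, a chemokine of memory and effector CD8 T cells, was at 7246 CPM (6776 to 7739) over 38 barcodes of repeated clones of the library labelled Healthy, 11.2-fold (10.4 to 12.1) its level in barcodes of single clones. In MTZ-preventive it was at 6933 CPM (6487 to 7401) over 45 barcodes, 4.74-fold (4.38 to 5.12) the level of single clones. Nkg7, a protein of cytotoxic granules, was 5.28-fold (4.41 to 6.29) and 3.34-fold (2.63 to 4.21) higher. Cd3e was 1.49-fold and 1.65-fold higher in sum, but not in every clone. It had 0 UMIs in clone 9 of the library labelled Healthy and in clones 8, 14, 15 and 19 of MTZ-preventive, of 2 barcodes each. Cd8b1 had ratios of 1.12 and 1.43 with intervals that held 1. Barcodes of 1 clone are not independent, and these intervals do not cover the spread between clones.

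The Ccl5 UMIs came from a few clones. In the library labelled Healthy clones 3, 4, 7 and 8 held 163, 342, 180 and 182 of the 884 Ccl5 UMIs of repeated clones. All 7 barcodes of clones 3 and 4 had Cd8 UMIs, and clone 8 had a Cd4 barcode. Clone 1, with 7 barcodes, held 1 Ccl5 UMI and 0 Nkg7 UMIs, and clone 5 held 0 of both. In MTZ-preventive clones 1 and 2 held 334 and 468 of 900 Ccl5 UMIs, and clone 9 held 83. For the first pair, the barcodes were Cd8 in 3 of 4 and 4 of 4 cases. Clones 4 and 5 held 0 Ccl5 UMIs and 1 Cd4 UMI each, and the 3 barcodes of clone 3 were not among those of the gene expression library. In all, 20 of 22 barcodes of repeated clones with a co-receptor were Cd8 in the library labelled Healthy and 11 of 19 in MTZ-preventive, or 90.9% (70.8 to 98.9) and 57.9% (33.5 to 79.8). Several of these barcodes came from the same clone, and the intervals do not cover the spread between clones.

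**Figure D5:**
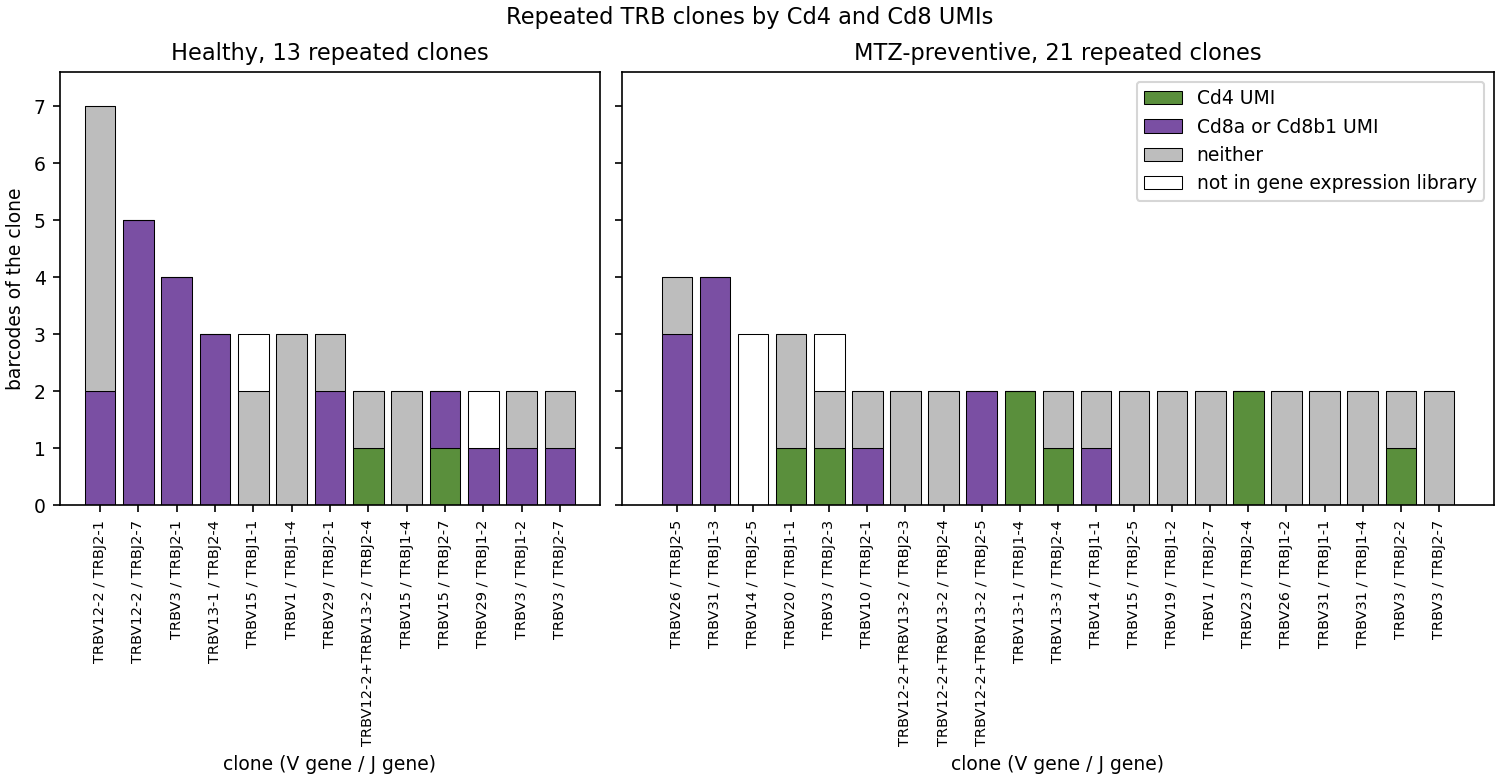
Number of barcodes (vertical axis) of each repeated clone, named by its V and J gene, in the library labelled Healthy (13 clones, left) and MTZ-preventive (21 clones, right), coloured by the co-receptor UMIs of the barcodes. Clones 2, 3 and 4 on the left and the second and ninth on the right are wholly Cd8, and green Cd4 barcodes appear in 2 clones on the left and 6 on the right.

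Gene expression was then compared over all TRB barcodes, as the ratio of summed CPM in MTZ-preventive to that in the library labelled Healthy. Of 64 genes on the T cell lists, 42 reached 50 CPM in either library. At least 2-fold higher in MTZ-preventive were 5 of the 42 (11.9%), where 7.83% of all 2503 genes at that level were, and at least 2-fold lower were 3 (7.14%), against 1.52% of all. The median log2 ratio was -0.22 over the 42 and 0.10 over all 2503. The smooth muscle and fibroblast RNA given above differed between the same barcodes.

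Most genes of the receptor complex and its signalling were lower by value. All 16 genes of this list reached 50 CPM, none was past 2-fold, and the median log2 ratio was -0.31. Trbc2 stood at 387 CPM (369 to 406) and 233 CPM (210 to 257), a log2 ratio of -0.73, though its UMIs cannot be parted surely from those of Trbc1. Cd3d stood at 667 and 444 CPM, a log2 ratio of -0.59. Cd28, the co-stimulatory receptor, was the highest of the list with a log2 ratio of 0.56 (0.33 to 0.78). The 6 activation genes lay between -0.56 (Dusp2) and 0.42 (Fos).

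Genes of naive and recirculating T cells were split. Lef1, a transcription factor of naive T cells, stood at 164 and 75.9 CPM, a log2 ratio of -1.11 (-1.40 to -0.84). Tcf7 was at -0.78 and Satb1 at -0.79, and Ccr7, S1pr1, Il7r and Klf2 lay between 0.08 and 0.24. Cd8a was past 2-fold too, with 117 and 58.0 CPM and a log2 ratio of -1.01 (-1.34 to -0.70), whereas Cd8b1 was at -0.52 and Cd4 stood at 47.8 and 37.1 CPM. By the mean over barcodes the log2 ratio of Cd8a was -0.90, inside 2-fold.

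Of the 5 genes at least 2-fold higher, Ccl5 and Gzma stood on the cytotoxic list and the others on 1 list each. Ctla4 and Il17a were the only genes of their lists that reached 50 CPM. The other measured genes of the memory and cytotoxic lists did not all point the same way. Cd44, an adhesion receptor raised on memory T cells, stood at 20.7 and 58.0 CPM, a log2 ratio of 1.49 (1.06 to 1.92). Ccl5 stood at 833 CPM (806 to 860) and 1887 CPM (1821 to 1954), a log2 ratio of 1.18. Barcodes of repeated clones held 884 of 3622 and 900 of 3157 Ccl5 UMIs, and the highest single barcode held 198 and 204. Without those clones its log2 ratio was 1.175. Ctla4, an inhibitory receptor, stood at 35.9 and 76.5 CPM, a log2 ratio of 1.09 (0.74 to 1.44). Il2rb, a chain of the interleukin 2 and 15 receptors, was at 0.60, Ly6c2 at -0.65 and Nkg7 at 0.03. The cytotoxic list pointed in both directions, with Klrd1 at -0.90 and Ctsw at -0.32. In the 37 TRB barcodes of MTZ-treated with gene expression, Ccl5 stood at 7022 CPM, Il17a at 347, Gzma and Cd44 at 95.7 each and Ctla4 at 59.8. By value all 5 were thus above the library labelled Healthy there too, on as few as 5 UMIs for Ctla4.

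Gzma, a granule protease, stood at 39.1 and 112 CPM, a log2 ratio of 1.52 (1.22 to 1.83), and its UMIs came from few cells. In MTZ-preventive 17 barcodes held 188 Gzma UMIs, and 156 of these were in 9 barcodes of repeated clones. Without barcodes of repeated clones its log2 ratio was -0.26, so the sign of the Gzma difference rests on them. Il17a, the interleukin 17A gene, stood at 19.1 CPM (15.2 to 23.7) and 208 CPM (187 to 231), a log2 ratio of 3.45 (3.10 to 3.81). It was present in 8 barcodes of the library labelled Healthy and 14 of MTZ-preventive, and 1 barcode of the latter held 158 of 348 UMIs. The interval of the Il17a ratio treats UMIs of 1 cell as independent and does not cover the spread between cells. Of those 14 barcodes 4 used TRBV13-3, the commonest V gene among them, which 8.22% of all TRB barcodes of MTZ-preventive used. All 14 had neither Cd4 nor Cd8 UMIs, as had 59.2% of TRB barcodes there, and they held 13 different clones. Neither co-receptor was also found in 7 of the 8 Il17a barcodes of the library labelled Healthy and in all 3 of MTZ-treated. Il17a UMIs were in 2.64% (1.45 to 4.39) of TRB barcodes of MTZ-preventive and in 0.387% of barcodes with a B cell receptor and no T cell receptor, against 0.665% and 0% in the library labelled Healthy. In MTZ-treated they were in 3 of 37 TRB barcodes, 8.11% (1.70 to 21.9).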

How the data were processed

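The authors deposited, for each T cell receptor library, the contigs assembled per barcode with their V, D, J and C calls, CDR3 bases and counts of UMIs and reads, and for each gene expression library a matrix of raw counts of UMIs per gene and barcode. All contigs listed were marked productive. The matrix headers give Cell Ranger 5.0.0, and the submitters' processing notes name STAR and build mm10. Libraries came from a 5′ kit with enrichment of receptor transcripts.

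From these, 1 productive TRB contig per barcode was kept (most UMIs, then reads). A clone was the same V gene, J gene and CDR3 bases. UMIs of gene expression were summed over TRB barcodes, with lines of 1 symbol added together, and scaled to 1e6 of their total (CPM). A fold of 2 was read only for genes that reached 50 CPM in 1 of the 2 main libraries. The commonest V start or J end was extended while at least 20% of the clones of a gene with at least 10 clones held it. With 1 library per group no test was made. Intervals are at 95%. Those of shares and of ratios of shares were tested on simulated independent draws, which does not cover barcodes grouped in clones. The Poisson intervals of levels were not tested. No doublet caller was run; barcodes with over 1 TRB contig or a B cell receptor contig were left out as alternatives. Named were all J, D and C genes, V genes at 5% or more in either of both main libraries, the 5 largest clones of each, clones in more than 1 library, and T cell gene lists. The members, lists and alternatives were chosen with earlier results of these data known. The other alternatives were contigs with at least 3 UMIs, barcodes within the study's limits, barcodes with an alpha chain, each clone once, 3 other definitions of a clone and, for levels, another total and the mean over barcodes. The versions were scipy 1.17.1, numpy 2.4.6, matplotlib 3.10.9 and pandas 2.3.3 under Python 3.11.15. Gene positions and types were taken from RefSeq, build GRCm38.p6. One gene of the lists is counted in their summaries and is not reported here.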

Additional observations from a re-analysis of the deposited data

Results flagged for a closer look

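Trbv24, a V segment of the locus by RefSeq, had UMIs in the gene expression libraries although no contig of any library was named TRBV24. There were 37 UMIs in the library labelled Healthy and 6 in MTZ-preventive, of which 23 and 3 were in barcodes with no TRB contig. The others were spread over barcodes with contigs of 9 and 3 other V names, at most 3 UMIs for 1 name. One barcode without a contig in the library labelled Healthy had Trbv24 as its leading V gene. Groups of 1 library give no outlying sample and no difference of effects to report.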

How the results depend on the processing

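The ratio of repeated clones was above 1 with an interval that left out 1 under all 10 alternatives, between 2.45 and 3.53. All of these intervals treat barcodes of 1 clone as independent and do not cover the spread between clones. The ratio was lowest for barcodes within the study's limits. There repeated clones held 35 of 1179 barcodes (2.97%) in the library labelled Healthy and 37 of 509 (7.27%) in MTZ-preventive. Of 110 recomputed main values, 105 stayed within the interval or within 1.5 times of the main value. With the alpha CDR3 in the clone definition the share of barcodes in repeated clones was 1.74% in the library labelled Healthy and 6.14% in MTZ-preventive. Genes at least 2-fold higher in MTZ-preventive, 196 in all, were 128 without the 10 barcodes with most UMIs of each library, an alternative chosen after seeing the data, and 89 by the mean over barcodes. Genes at least 2-fold lower, 38 in all, were 93 when totals left out mitochondrial, ribosomal protein and receptor genes, where 3750 genes instead of 2503 reached 50 CPM and 286 were at least 2-fold higher. Without barcodes of repeated clones, also chosen after seeing the data, the log2 ratio of Gzma was -0.26. The cause of the other shifts was not tested. The interval of the ratio left out 1 in 5 of 6 alternatives for TRBV19 (1.67 to 2.46), TRBV13-3 (1.21 to 1.91) and TRBV12-1 (0.388 to 0.482), and in 4 of 6 for TRBV12-2 (0.433 to 0.679). Log2 ratios were between 1.10 and 1.34 for Ccl5, 1.41 and 1.53 for Cd44, 3.36 and 4.39 for Il17a and -1.20 and -1.07 for Lef1. For Cd8a they were between -1.14 and -0.90. Cd8a was inside 2-fold by the mean over barcodes and without the 10 barcodes with most UMIs (-0.93). Depth limits the values most for the 38 barcodes of MTZ-treated and the 3 of AS. No paired analysis was possible because each group has 1 library.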
